A study of Mus musculus with 12 samples.

Results

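Cells take up, export and store cholesterol with a small set of receptors and pumps, and they hold much of it in the plasma membrane together with sphingomyelin. The 8 genes described here encode the parts of that machinery: Scarb1 (lipoprotein receptor), Abca1 and Abcg1 (sterol export pumps), Ttc39b (a regulator of those pumps), Npc1 and Npc2 (lysosomal cholesterol release), and Sgms1 and Sgms2 (sphingomyelin synthases). They are 8 of the 41214 genes with counts. The set was chosen by role and by measured values: Scarb1 and Sgms2 were known to be higher, and Ttc39b lower, in one of the genotypes compared. The difference between genotypes is therefore given for these 8 genes as a description, with no test.

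The RNA came from 4 libraries of leukaemic cells, all from mice of the strain C57/BL6 NUP98-HOXD13, which carry NUP98-HOXD13, a gene fusion that drives myeloid leukaemia. Of these, 2 are named Gfi1 KI and labelled het, and 2 are named Gfi1 KD and labelled homo. The chromatin samples of the same names are labelled KI/wt and KD/KD. Gfi1 encodes a zinc finger transcriptional repressor of blood progenitors, and, as background, KI and KD alleles of this gene were made by placing human GFI1 at the mouse locus. The sources used here give no age of the animals, no promoter of the fusion gene and no purity of the cells. The labels number the 2 libraries of each genotype as replicates without naming animals, and errors and p-values measure the spread between these libraries.

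Lipoprotein cholesterol reaches the lysosome by endocytosis, where the soluble NPC2 protein hands it to the membrane protein NPC1 for release. Surplus sterol activates the LXR nuclear receptors, which switch on Abca1 and Abcg1, and the pumps pass cholesterol to apolipoprotein A-I and to high-density lipoprotein. TTC39B promotes the degradation of LXR, and the SR-BI receptor encoded by Scarb1 moves cholesterol between high-density lipoprotein and the cell. Sphingomyelin synthases transfer a phosphocholine group to ceramide, SGMS1 in the Golgi and SGMS2 mainly at the plasma membrane.

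Counts assigned to genes ranged from 4581593 in KI replicate 1 to 11934542 in KD replicate 1. Reads in no gene made up 88.3% of the uniquely aligned reads in KI replicate 1, and 63.2% to 68.3% in the other libraries. It is not stated whether the counting used strand, so overlapping and antisense genes cannot be told apart. The 3 loci with the most counts, all predicted genes, took 39.0% and 44.4% of gene counts in KI but 19.4% and 21.2% in KD. Levels below are CPM (gene counts relative to library size, scaled by TMM factors), and 3 counts correspond to 0.212 to 0.696 CPM. Gfi1 lay at 36.2 and 89.0 CPM in KI and at 7.22 and 1.12 CPM in KD, so its order followed the genotype labels. Where an allele holds human sequence, its reads need not be counted to the mouse gene, so this checks the labels only in part. Each of the 12 leukaemic progenitor markers had counts in all libraries, but 7 had positive and 5 negative differences. Ptprc, the pan-leukocyte gene, lay between 329 and 1092 CPM and Mpo, the myeloid peroxidase, between 897 and 2177 CPM. Hoxa10 was low, with 17 and 7 counts in KI and 48 and 3 in KD. Cd34 lay at 32.5 and 6.41 CPM in KI against 68.4 and 120 CPM in KD, and Kit at 55.2 and 52.7 against 34.1 and 27.0 CPM. Xist, the transcript of the inactive X chromosome, lay at 13.0 and 0.425 CPM in the libraries numbered 1 and at 785 and 846 CPM in those numbered 2 (KI first). Eif2s3y, a Y-linked gene, had 361 and 819 counts in the libraries numbered 1 and 0 and 1 in those numbered 2, so the 2 libraries of each genotype hold cells of different animals. Markers of other cell types also differed: the summed level of 13 erythroid markers was 626 and 543 CPM in KI against 68.9 and 3.63 CPM in KD, and that of 12 secondary granule neutrophil markers was 18114 and 20335 against 5044 and 4302 CPM. Of these neutrophil markers Mmp8 and Chil3 overlapped between the genotypes, Chil3 at 2013 and 3179 against 1470 and 2666 CPM. The other 10 were lower in both KD libraries (83.3%, beside 23.5% of all genes). All 10 tested T and NK markers had negative differences, with sums over the list of 205 and 241 against 53.6 and 66.2 CPM. Il18rap alone, at 117 and 171 against 41.0 and 49.1 CPM, made up most of each sum. Of the others, Cd3d, Cd8a and Lck overlapped between the genotypes. The 15 monocyte and macrophage markers summed to 1793 and 1333 CPM in KI and to 2548 and 2442 CPM in KD, with 9 of 14 tested markers positive and 5 negative, and none at 0 in all libraries. Among hepatocyte markers Alb was at 0 counts in all 4 libraries and Apoa1 at 3 counts or fewer. In bulk RNA, fewer cells of a type and less RNA per cell cannot be told apart.

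Promoter letters are shown for 3 members, to place the genes before their levels: Ttc39b, which had the widest difference, Abca1, whose promoter holds the LXR element that ties it to sterol load, and Npc2, which has a match to a GFI1 recognition sequence. RefSeq (GRCm38.p6) gave promoters for 5 of the 8 genes (Sgms1, Sgms2, Abca1, Ttc39b and Npc2; those of Scarb1, Abcg1 and Npc1 were not searched), with 13 start sites in all, each from 250 bases before to 50 bases after the start. Capitals mark the GC box GGGCGG in Ttc39b, the LXR element in Abca1 (TGACCG, then 4 bases, then TAACC) and the GFI1 match in Npc2 (AAATC, then 3 bases, then GC). All 3 genes lie on the minus strand and are written 5′ to 3′ along the transcript.
Ttc39b promoter, chr4:83324140-83324439, minus strand: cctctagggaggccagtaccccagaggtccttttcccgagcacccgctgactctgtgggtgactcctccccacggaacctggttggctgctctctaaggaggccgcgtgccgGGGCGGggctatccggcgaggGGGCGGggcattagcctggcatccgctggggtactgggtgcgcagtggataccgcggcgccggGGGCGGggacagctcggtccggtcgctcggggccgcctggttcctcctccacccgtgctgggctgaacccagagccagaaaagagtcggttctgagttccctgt
Abca1 promoter, chr4:53159846-53160145, minus strand: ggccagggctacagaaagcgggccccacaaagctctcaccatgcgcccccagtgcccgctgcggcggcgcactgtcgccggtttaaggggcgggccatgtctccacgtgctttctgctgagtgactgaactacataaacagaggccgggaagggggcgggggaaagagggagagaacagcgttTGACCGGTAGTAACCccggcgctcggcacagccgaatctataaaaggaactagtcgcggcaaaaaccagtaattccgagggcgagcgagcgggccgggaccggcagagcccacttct
Npc2 promoter, chr12:84773063-84773362, minus strand: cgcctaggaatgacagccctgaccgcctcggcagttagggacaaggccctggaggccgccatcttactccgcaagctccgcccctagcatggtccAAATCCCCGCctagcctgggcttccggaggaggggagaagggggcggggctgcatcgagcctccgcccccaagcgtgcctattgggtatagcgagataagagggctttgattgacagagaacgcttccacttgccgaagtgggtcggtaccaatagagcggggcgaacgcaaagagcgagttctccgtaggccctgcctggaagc

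Searched on both strands, the LXR element of the Abca1 type occurred in 0.0122% of 32851 RefSeq promoters of the same length. Among the 5 genes searched it was in Abca1 alone, from -67 to -53 relative to the start. The pattern was written after the Abca1 element, so this match was fixed in advance and is no search for LXR sites in general. The GFI1 match occurred in 2.82% of promoters and, of the 13 start sites, in that of Npc2 alone, from -155 to -146. GC boxes, found in 35.7% of promoters, were present 3 times each in Ttc39b and Npc2 and 2 times in Abca1. They were also present in the other genes searched, with 0 to 2 per start site in Sgms1 and 0 to 4 in Sgms2. The consensus direct repeat AGGTCA, 4 bases, AGGTCA (0.0152% of promoters) and the sterol regulatory element, ATCAC followed at once by CCCAC (0.0913%), were in none of the 13 windows. Sgms2 had 6 annotated start sites with GC contents from 39.0% to 77.7%, and Sgms1 had 4, from 46.0% to 77.3%, against a median of 52.7% over all promoters. Counts per gene do not tell which of these starts was used. Such matches describe letters only, and no binding data were analysed here.

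Scarb1 (ENSMUSG00000037936, GRCm38 chromosome 5, 125277087 to 125341094), the receptor for high-density lipoprotein, was at 63.5 and 61.6 CPM in KI and at 165 and 135 CPM in KD. Both KD libraries were above both KI libraries, and the KI libraries lay close to each other. The means were 62.6 ± 1.40 and 149.9 ± 21.4 CPM (SD, n = 2), a log2 difference (KD minus KI) of 1.26 ± 0.27 (SE), or 2.40-fold. The difference stayed between 1.21 and 1.47 when each library was left out in turn. It was 1.68 when only library size was used for scaling, a setting that raises the median log2 difference of all genes by 0.43. Monocyte markers were also higher in KD by their sum, as given above, and their part in the level of Scarb1 was not tested.

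**Figure D1:**
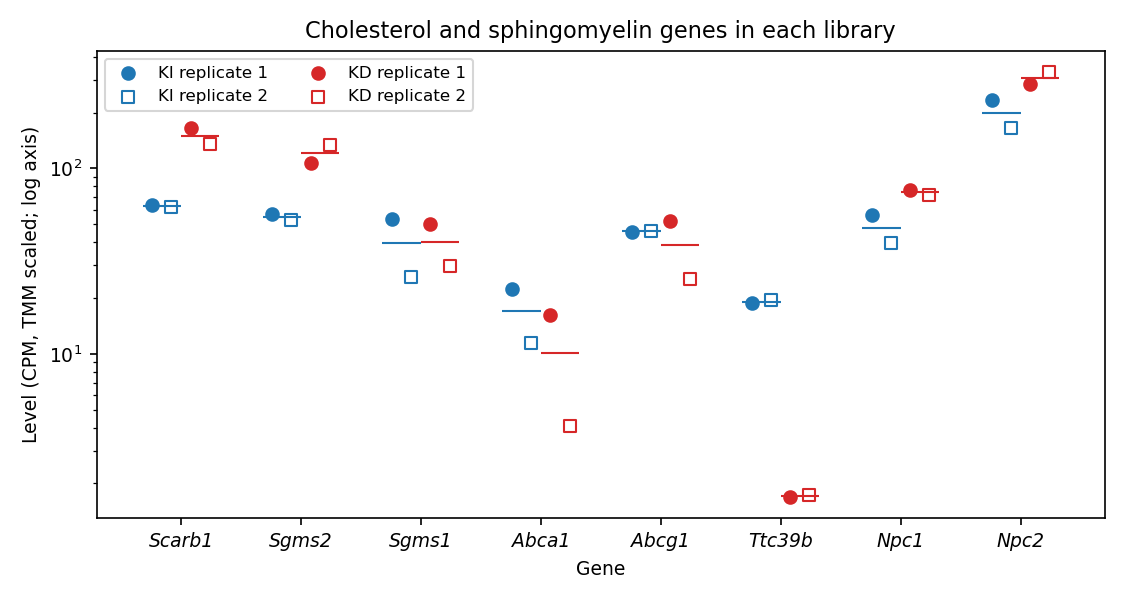
Levels of the 8 genes in each library (CPM on a log axis), with KI in blue and KD in red, filled circles for replicate 1, open squares for replicate 2 and horizontal lines at the genotype means. Both KD libraries lie above both KI libraries for Scarb1, Sgms2, Npc1 and Npc2 and below them for Ttc39b, whereas Sgms1, Abca1 and Abcg1 overlap.

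Sgms2 (ENSMUSG00000050931, chromosome 3, 131318985 to 131491443), the synthase of the plasma membrane, was at 56.6 and 52.9 CPM in KI and at 107 and 134 CPM in KD. The genotypes did not overlap, and the KD mean was 2.20-fold the KI mean (54.8 ± 2.60 against 120.6 ± 19.0 CPM, SD, n = 2; log2 1.14 ± 0.28, SE). Leaving out each library gave 1.04 to 1.40. Its Golgi relative Sgms1 (ENSMUSG00000040451, chromosome 19, 32122727 to 32389885) did not follow the genotype. Sgms1 was at 53.1 and 26.1 CPM in KI and at 50.4 and 29.7 CPM in KD, so that the libraries numbered 1 were high and those numbered 2 low in both genotypes. The log2 difference between genotypes was 0.02 ± 0.47 (SE), with -0.29 when KI replicate 2 was left out and 0.77 when KI replicate 1 was. Upper quartile scaling also turned its sign, to -0.10. Xist separates the libraries by the same numbers, and its relation to Sgms1 was not tested. Samd8, which encodes a related enzyme that makes ceramide phosphoethanolamine, had 46.2 and 39.2 CPM in KI and 58.9 and 39.5 CPM in KD (log2 0.21 ± 0.33, edgeR adjusted p = 0.957).

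Ratios of counts between 2 genes of the same library do not depend on the scaling between libraries. They carry the unequal lengths of the transcripts, so only their change between libraries is read here. The Sgms2 to Sgms1 ratio was 1.07 in KI replicate 1 (95% interval 0.886 to 1.28), 2.03 in KI replicate 2 (1.72 to 2.39), 2.13 in KD replicate 1 (1.95 to 2.33) and 4.51 in KD replicate 2 (4.01 to 5.09). It was higher in KD at each replicate number, but KI replicate 2 and KD replicate 1 lay within each other's counting error. The labels do not say that the numbers pair the libraries. Sgms2 was chosen as higher in KD, so nothing is read from the order of this ratio. These exact binomial intervals cover counting error alone.

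**Figure D2:**
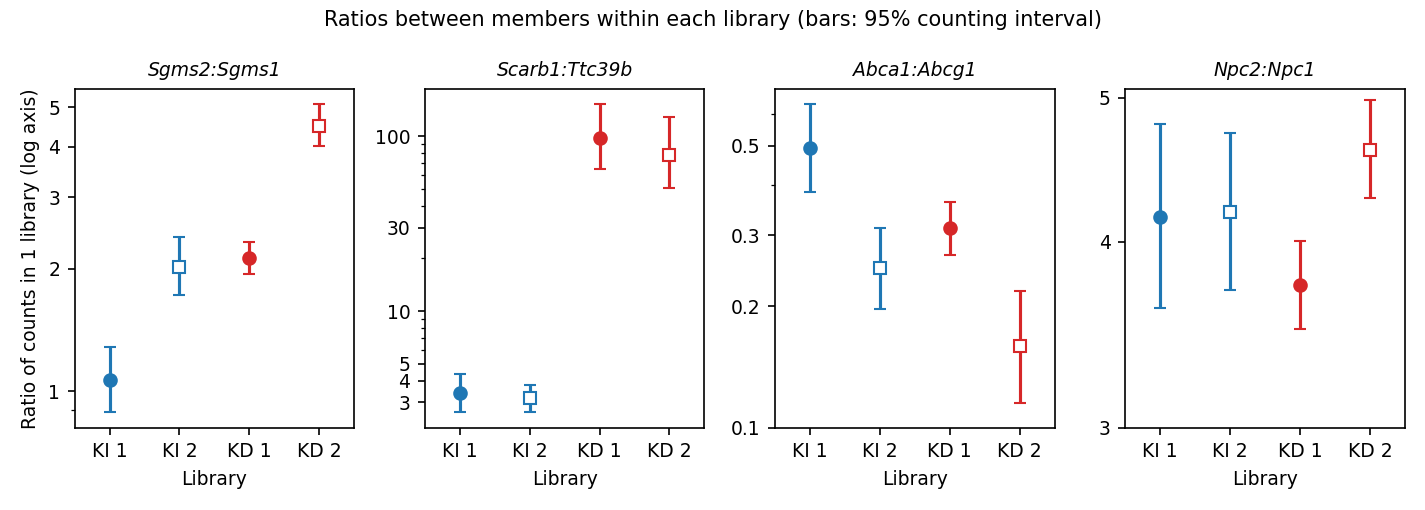
Ratio of counts between 2 genes in the same library, on a log axis, with bars for the exact binomial 95% interval (counting error only), KI in blue and KD in red. The Scarb1 to Ttc39b ratio (3.38 and 3.16 in KI, 97.2 and 78.0 in KD) differs by the choice of those 2 genes, the Npc2 to Npc1 ratio stays between 3.74 and 4.61, the Abca1 to Abcg1 ratio overlaps, and the Sgms2 to Sgms1 ratio nearly meets at 2.03 and 2.13.

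Ttc39b (ENSMUSG00000038172, chromosome 4, 83220300 to 83324309), whose product promotes LXR degradation, was the member with the widest difference. It was at 18.8 and 19.5 CPM in KI (81 and 164 counts) and at 1.70 and 1.73 CPM in KD (24 and 20 counts). Within each genotype the libraries were close, with means of 19.1 ± 0.475 and 1.71 ± 0.0210 CPM (SD, n = 2). The log2 difference was -3.47 ± 0.45 (SE), so that KI was 11.1-fold KD. Without each library in turn it ran from -3.42 to -3.35, and over the 3 other scalings from -3.56 to -3.05. As a ratio within libraries, Scarb1 counts were 3.38 and 3.16 times those of Ttc39b in KI, and 97.2 and 78.0 times in KD, a separation that the choice of these 2 genes fixes. The erythroid, neutrophil, and T and NK marker sums given above were also lower in both KD libraries, and their part in the levels of Ttc39b was not tested.
Relatives of Ttc39b were few in counts. Ttc39a was at 3.71 and 2.49 CPM in KI and at 0.849 and 1.04 CPM in KD (16, 21, 12 and 12 counts), Ttc39d had 5 counts or fewer in each library and was not tested, and Ttc39c lay at 19.9, 8.30, 18.5 and 25.8 CPM (KI replicates 1 and 2, then KD). Neither tested relative passed edgeR's test (adjusted p = 0.544 for Ttc39a and 0.795 for Ttc39c).

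The export pumps overlapped between the genotypes. Abca1 (ENSMUSG00000015243, chromosome 4, 53030789 to 53159988), which loads apolipoprotein A-I, was at 22.5 and 11.5 CPM in KI and at 16.2 and 4.06 CPM in KD. As with Sgms1, both libraries numbered 1 were above both numbered 2. The log2 difference of -0.73 ± 0.74 (SE) was -1.92 without KD replicate 1, -1.01 without KI replicate 2, -0.01 without KI replicate 1 and 0.04 without KD replicate 2, so its size depended on which library was left out. Abcg1 (ENSMUSG00000024030, chromosome 17, 31057694 to 31117984), which exports sterol to high-density lipoprotein, was even between the KI libraries at 45.5 and 46.2 CPM and spread in KD at 51.8 and 25.4 CPM. Its log2 difference was -0.25 ± 0.41, with -0.75 without KD replicate 1 and 0.25 without KD replicate 2. It changed sign with library size scaling, to 0.19. The Abca1 to Abcg1 count ratio was 0.495 and 0.249 in KI and 0.313 and 0.160 in KD.

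The lysosomal pair lay higher in KD with nearly equal sizes. Npc2 (ENSMUSG00000021242, chromosome 12, 84754559 to 84773112), the soluble carrier, was at 234 and 165.5 CPM in KI and at 286 and 331 CPM in KD. Npc1 (ENSMUSG00000024413), the membrane protein that receives its cargo, was at 56.4 and 39.5 CPM in KI and at 76.6 and 71.8 CPM in KD. Neither gene overlapped between the genotypes, although for both the gap in CPM between the nearest libraries of the 2 genotypes was smaller than that between the KI libraries. The log2 differences were 0.63 ± 0.30 for Npc1 and 0.63 ± 0.32 for Npc2 (SE), or 1.55-fold each. Both were smallest without KI replicate 2 (0.50 and 0.49) and largest without KI replicate 1 (1.05 and 1.03). The Npc2 to Npc1 count ratio was 4.16 and 4.19 in KI and 3.74 and 4.61 in KD, so the KI values lay between those of the KD libraries.

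**Figure D3:**
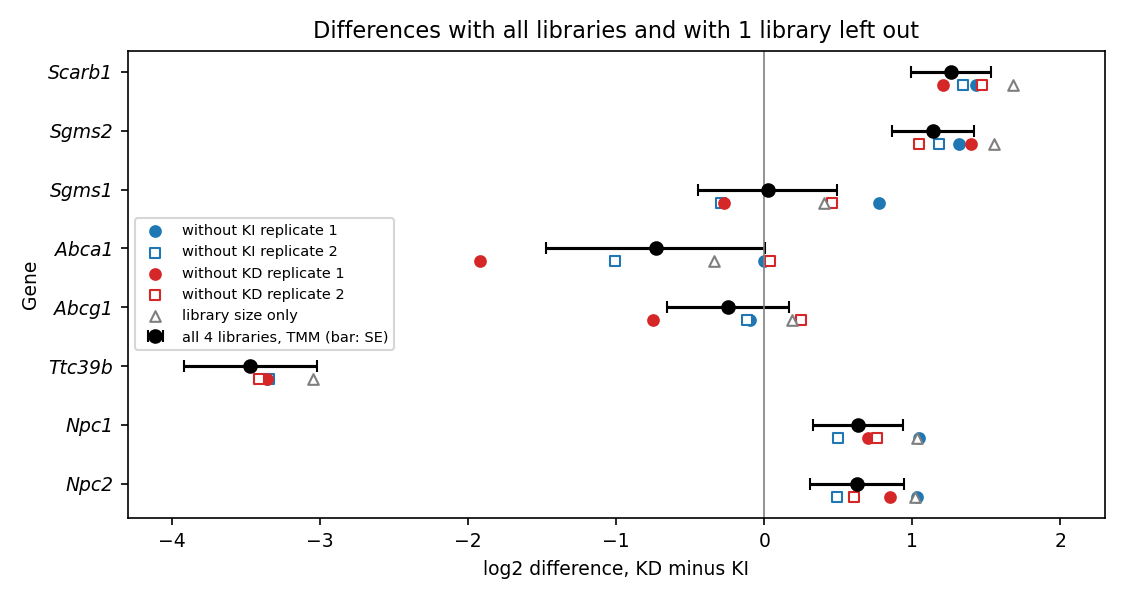
The log2 difference, KD minus KI, of each gene with all 4 libraries (black, bar for the SE of the edgeR fit) and, below it, with 1 library left out (blue for KI, red for KD) or with library size scaling (grey triangle). Ttc39b ranges from -3.47 to -3.05 and Scarb1 and Sgms2 stay at 1.04 or above, whereas Abca1 ranges from -1.92 to 0.04 with the library left out.

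Of the 8 genes, all of which passed the filter on low counts, 4 had both KD libraries above both KI libraries and 1 had both below. Over the 13822 genes tested, 14.5% lay higher in that way, 23.5% lower and 38.0% either way. Since the members were chosen on this contrast, nothing is read from their count. Across the 14 other settings tried, Scarb1, Sgms2, Npc1 and Npc2 were positive in each and Ttc39b negative in each. In the same settings Sgms1 was positive in 9, Abcg1 in 2 and Abca1 in 1. These settings reuse the same 4 libraries on which members were chosen, so nothing is read from the signs either.

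Other genes of the pathways were grouped into 8 lists by role, and their 148 matched genes, 136 of them tested, were fitted with all genes. In edgeR's quasi-likelihood test none was called in either direction, as was the case for all 13822 genes (0 called, 0%). At an unadjusted p under 0.05 the fit had 3 of the 136 genes higher and 10 lower in KD, beside 1.29% and 8.34% of all genes. Of all genes at that limit 13.4% were higher in KD, but 20.4% with RLE, 9.33% with upper quartile and 77.2% with library size scaling. DESeq2 called 142 genes (1.03%), of which 1 was among the 136, namely Sphk1. The pathway genes had a median log2 difference of 0.09 against -0.06 for all genes tested. In both KD libraries 24.3% were higher and 21.3% lower, beside 14.5% and 23.5% of all genes. The lists share members, and they were drawn up with earlier results of these data known.

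Lipoprotein uptake genes lay in both directions. Of 16 tested, 7 were positive and 9 negative (median -0.18, but 0.28 with library size scaling and 0.38 without KI replicate 2). Without overlap 3 were higher (18.8%) and 5 lower (31.2%) in KD, beside 14.5% and 23.5% of all genes. Cd36 is a fatty acid and lipoprotein scavenger receptor of the same family as Scarb1. It was at 4.41 and 2.49 CPM in KI and at 0.637 and 0.173 CPM in KD. Its counts were 19 and 21 against 9 and 2 (edgeR adjusted p = 0.518). Scarb2, the third member of that receptor family and a lysosomal protein, overlapped at 40.6 and 88.0 against 44.6 and 64.1 CPM. Sorl1, a sorting receptor, was at 209 and 631 CPM in KI and at 897 and 754 CPM in KD, and its log2 value of 0.97 was 2.08 without KI replicate 2 and 0.53 without KI replicate 1. Lrp1, a large endocytic receptor, was at 476 and 382 CPM in KI and at 1079 and 406 CPM in KD. For Lrp1 the difference rested on KD replicate 1, and without it the log2 value was 0.03 in place of 0.79.

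The LXR and efflux list had 9 of 18 tested genes positive and 9 negative, with a median of 0.01 that was -0.07 with upper quartile and 0.45 with library size scaling, and ran from -0.15 (without KD replicate 2) to 0.38 (without KI replicate 2) with 1 library left out. Nr1h2, which encodes LXR beta, was at 38.7 and 58.7 CPM in KI and at 41.5 and 51.7 CPM in KD (log2 -0.07, adjusted p = 0.995). Nr1h3, which encodes LXR alpha, had 15 counts or fewer in each library and was not tested. Mylip, an LXR target and ubiquitin ligase, was at 24.4 and 39.0 CPM in KI and at 19.1 and 13.1 CPM in KD (log2 -0.98 ± 0.40, adjusted p = 0.525). Abcg4, a close relative of Abcg1, was at 6.96 and 4.27 CPM in KI and at 1.56 and 0.346 CPM in KD. Its counts were 30 and 36 against 22 and 4 (edgeR adjusted p = 0.518). Apoc1, an apolipoprotein, had 5, 326, 52 and 17 counts, and its log2 value of -2.96 turned to 1.27 without KI replicate 2. The transporter Abca7 and the corepressor Ncor1 had log2 differences of 0.31 and 0.18 (adjusted p = 0.855 and 0.959).

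No gene of cholesterol synthesis passed edgeR's test with all 4 libraries, as was the case for all genes tested. Of 21 tested, 17 had a positive and 4 a negative difference (median 0.23), where 44.5% of all genes tested were positive. Without overlap 6 were higher (28.6%) and 1 lower (4.76%) in KD, beside 14.5% and 23.5% of all genes. Mvd, the decarboxylase of the mevalonate pathway, was at 7.19 and 8.07 CPM in KI and at 19.0 and 19.7 CPM in KD (log2 1.34 ± 0.37, SE, adjusted p = 0.518). Mvk, mevalonate kinase, and Fdft1, squalene synthase, had 1.11 ± 0.48 and 0.74 ± 0.38 (adjusted p = 0.534 and 0.594). Lbr, a sterol reductase of the nuclear envelope, overlapped at 460 and 516 against 494 and 670 CPM. The list median was 0.09 when KD replicate 2 was left out and 0.54 when KI replicate 2 was, and it was positive in each of the other settings tried. In the SREBP control list, 8 of 13 tested genes were positive and 5 negative (median 0.13). Srebf1 and Srebf2, which encode the SREBP transcription factors, had 0.53 ± 0.30 and 0.27 ± 0.28. Mbtps1, a protease that activates them, had 0.48 ± 0.27, and Rnf145, a ligase of the sterol feedback loop, -0.69 ± 0.39, which was -0.12 without KI replicate 1. These 4 genes had adjusted p-values from 0.633 to 0.890 in edgeR.

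Genes of cholesterol storage and of its transport between membranes had 15 of 23 positive and 8 negative, with a median of 0.14. In both KD libraries 7 were higher (30.4%) and 3 lower (13%), beside 14.5% and 23.5% of all genes. Soat1, which esterifies cholesterol for storage, was at 263 and 221 CPM in KI and at 426 and 350 CPM in KD (log2 0.68 ± 0.30, SE, adjusted p = 0.542). Lipa, the lysosomal acid lipase that frees cholesterol upstream of Npc2, was at 52.0 and 31.0 against 73.7 and 69.3 CPM (0.79 ± 0.35, adjusted p = 0.536). Lamp1, a lysosomal membrane protein, was at 328 and 380 against 533 and 667 CPM (0.76 ± 0.32, adjusted p = 0.530).

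**Figure D4:**
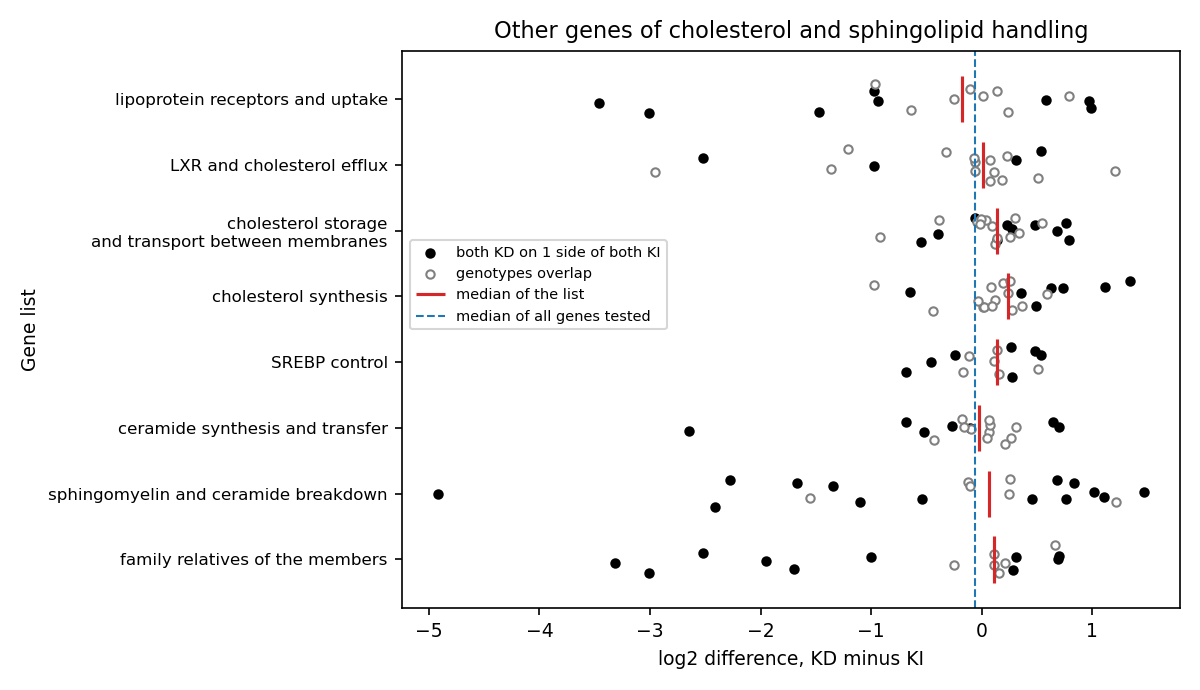
The log2 difference, KD minus KI, of each tested gene in the 8 pathway lists, with filled points where both KD libraries lie on 1 side of both KI libraries, red lines at the list medians and a dashed line at the median of all genes tested (-0.06). No gene passed edgeR's test at an adjusted p of 0.05, DESeq2 called Sphk1, and the median is highest for cholesterol synthesis (0.23) and lowest for lipoprotein uptake (-0.18).

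Upstream of the sphingomyelin synthases, 9 of 18 tested genes of ceramide synthesis and transfer had a positive and 9 a negative difference, with a median of -0.03 that turned to 0.06 with RLE, 0.40 with library size scaling and 0.22 without KI replicate 2. Sptlc2, a subunit of the enzyme that opens the pathway, overlapped at 105 and 160 against 132 and 140 CPM. Cers6, a ceramide synthase, was at 168 and 125 CPM in KI and at 300.2 and 175 CPM in KD (log2 0.70 ± 0.37, SE, adjusted p = 0.618, with 0.37 without KD replicate 1 and 1.12 without KD replicate 2), and Cers5 had 0.64 ± 0.30 (adjusted p = 0.561). Plekha8, a lipid transfer protein, was at 7.65 and 1.78 CPM in KI and at 0.849 and 0.605 CPM in KD. Its counts were 33 and 15 against 12 and 7 (edgeR adjusted p = 0.518). Col4a3bp, the CERT protein that carries ceramide to the synthases, lay at 86.0 and 94.7 against 85.5 and 64.1 CPM.

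The breakdown list had 10 of 20 tested genes positive and 10 negative, with a median of 0.07 that was -0.14 without KD replicate 2. In both KD libraries 7 were higher (35%) and 7 lower (35%), beside 14.5% and 23.5% of all genes. Sphk1, a kinase that makes sphingosine-1-phosphate, was at 6.73 and 23.8 CPM in KI and at 0.637 and 0.346 CPM in KD (29, 201, 9 and 4 counts). The fitted log2 difference was -4.92 ± 0.88 (SE), with adjusted p = 0.518 in edgeR. DESeq2 gave -4.84 with adjusted p = 7.1e-05, and over the 14 other settings the adjusted p ran from 1.2e-05 to 0.657, with a negative value in each. Its relative Sphk2 was at 31.8 and 32.4 against 45.5 and 42.2 CPM (log2 0.45 ± 0.28, adjusted p = 0.687). The Sphk1 to Sphk2 count ratio was 0.212 and 0.736 in KI and 0.0140 and 0.00818 in KD. Mfsd2b, the sphingosine-1-phosphate exporter of red cells and platelets, was at 13.2 and 15.5 CPM in KI and at 4.39 and 0.950 CPM in KD (-2.42 ± 0.79, adjusted p = 0.518). The erythroid marker sum was lower in KD as well, at 626, 543, 68.9 and 3.63 CPM, as were the neutrophil and the T and NK sums, and their part in the levels of Sphk1 and Mfsd2b was not tested. Smpd5, a sphingomyelinase, was at 3.94 and 5.22 CPM in KI and at 1.49 and 1.38 CPM in KD. Its counts were 17 and 44 against 21 and 16 (edgeR adjusted p = 0.521).

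Psap, the precursor of the saposins that present sphingolipids to lysosomal enzymes and part of the same list, was at 1465 and 378 CPM in KI and at 2795 and 2313 CPM in KD (log2 1.47 ± 0.69, SE, adjusted p = 0.561), and Smpdl3a, a phosphodiesterase, at 159 and 66.0 against 215 and 186 CPM (0.84 ± 0.46, adjusted p = 0.629). Both were lowest in KI replicate 2, and without it their log2 differences were 0.90 and 0.44, against 2.90 and 1.75 without KI replicate 1. The ceramidases Asah1 and Acer3 and the phosphatase Sgpp1, named because their values were seen to be lowest there, are given as examples and support nothing. Acer3 was at 58.4 and 3.32 CPM in KI and at 68.7 and 62.7 CPM in KD, and Sgpp1 at 78.4 and 16.5 against 94.8 and 95.6 CPM. Without KI replicate 2 the log2 differences were 0.27 for Acer3, 0.38 for Sgpp1 and 0.30 for Asah1, and without KI replicate 1 they were 4.44, 2.67 and 1.82. KI replicate 2 was the lowest of the 4 libraries for 8 of the 20 tested genes of this list, and each other library for 4. Of the 14 tested monocyte and macrophage markers it was lowest for 6. KI replicate 1 was lowest for 3 of these markers, KD replicate 1 for 4 and KD replicate 2 for 1. The same count over all genes was not made, so nothing is read from these numbers. The part of those markers in the sphingolipid values was not tested.

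Among the family relatives of the members, 9 of 16 tested genes had a positive and 7 a negative difference, with a median of 0.11 that was -0.01 with upper quartile scaling, -0.12 with no filter on low counts, and between -0.50 (without KD replicate 2) and 0.20 (without KI replicate 2) with 1 library left out. Abca13, another transporter of this family, was at 326 and 401 CPM in KI and at 216 and 148 CPM in KD (adjusted p = 0.518). Abcg3 was at 9.28 and 3.08 CPM in KI and at 0.354 and 0.864 CPM in KD. Its counts were 40 and 26 against 5 and 10 (edgeR adjusted p = 0.518). Npc1l1, the intestinal cholesterol importer related to Npc1, had 6 counts or fewer in each library and was not tested.

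For each of the 3 genes that chose the set, the 4 genes with the nearest profile were taken over the 4 libraries, by root mean square distance of centred log2 CPM among 9637 genes of at least 5 CPM. With 4 libraries such likeness is easily met, and the genes are given as a description. Nearest to Scarb1 were Pdlim5, Ubqln2, Klf4 and Lrrc8b, at distances of 0.0995 to 0.140. Klf4, a transcription factor and 1 of the monocyte markers above, was at 56.6 and 43.1 CPM in KI and at 119 and 107 CPM in KD. Near Sgms2 were Ly86, Ctns and Tpst1, at 0.0739 to 0.0863. Of these Ctns, the lysosomal cystine transporter, was at 16.7 and 16.5 against 32.8 and 36.4 CPM. Nearest to Ttc39b were Syngr1 at 0.0730, Pcdh7, Plagl1 and Tanc1, the last at 0.269. Syngr1, a vesicle membrane protein, was at 10.2 CPM in both KI libraries and at 0.778 and 0.864 CPM in KD.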

How the data were processed

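RNA of leukaemic cells in 4 libraries (2 KI, 2 KD) was analysed from raw counts per gene that the authors deposited. Per the submitters' processing notes, TopHat2 2.0.10, SAMtools, HTSeq and DESeq were used with GRCm38. For strand setting and annotation release nothing is given in the sources used here. The 5 summary entries that name no gene were left out. Those for reads in no gene, ambiguous reads and reads not aligned uniquely made up 93.2% to 97.9% of each total. Symbols were matched for 40254 of 41214 genes.

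The 8 genes and the lists were chosen with earlier results of these data known. In R 4.3.3, genes were kept by filterByExpr, scaled by TMM and tested with glmQLFit and glmQLFTest of edgeR 4.0.16, genotype as the only term, with Benjamini-Hochberg adjustment at 0.05 over all 13822 genes tested. Standard errors were derived from the F statistic. Simulated data had 50 genes changed at each size and the dispersion estimated here (0.204, the same for every gene). There the fit called 4 of 50 genes at 4-fold, 44 at 8-fold, 48 at 16-fold and 50 at 32-fold. It made 11 false calls among 13580 genes. Real genes differ in dispersion, so these rates need not hold for the data. Hbb-y, an erythroid marker 743-fold higher in KI, had adjusted p = 0.300 in edgeR and was not called. The lack of calls therefore does not show that large changes are absent. Other settings tried were scaling by RLE, upper quartile or library size, other low-count filters, DESeq2 1.42.0, limma-voom (limma 3.58.1), the replicate number as a block, and leaving out each library. Added after the data were seen were a robust dispersion prior and library size scaling without the 3 loci of highest count.

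Genes named are the members, in each list the 3 of lowest p and the 2 of highest mean CPM, and the 4 nearest profiles; a few relatives and partners of the members are named beyond that rule, chosen after their values were seen. Some genes that meet the rule are not reported here. Exon lengths were not used here, so CPM levels are compared between libraries and not between genes. The 8 chromatin libraries are not analysed here, because the 1616 columns of their tables name neither antibody nor mouse.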

Additional observations from a re-analysis of the deposited data

How the results depend on the processing

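The count of genes called, 0 with all 4 libraries in edgeR, was also 0 with RLE, upper quartile and library size scaling, with a filter of 5 CPM in 2 libraries, with limma-voom, with a robust dispersion prior and with library size scaling without the 3 loci of highest count. It was 169 without a low-count filter and 142 with DESeq2, and of the pathway genes 2 (Sphk1 and Apoc1) and 1 (Sphk1) were called in these settings. Leaving out 1 library gave 14 to 4130 calls over all genes, the highest without KI replicate 2, and 0 to 17 among the pathway genes. In those fits the lone library is assumed to vary like the other genotype, and genes can enter through 1 library. With the replicate block edgeR called 7 genes, all lower in KD, and 0 pathway genes. The deviations of same-numbered libraries had a correlation of 0.206 across genes, but nothing in the labels says that the numbers pair the libraries. Xist and Eif2s3y separate the numbers in both genotypes, so the replicate block also separates the libraries by sex-linked transcripts. In the fit with genotype alone, this difference is part of the spread within genotypes. Leaving out 1 library leaves it unbalanced between the genotypes. The comparison of levels per transcript length was not run, since no exon lengths were used here. For genes of a few counts per library, such as Cd36 and Ttc39a, depth limits what a difference can show.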
